A study of Mus musculus with 6 samples.

Results

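The genes described here encode the machinery of RNA polymerase I and RNA polymerase III, the enzymes that make ribosomal RNA, transfer RNA and other short non-coding RNAs. The members were chosen by gene symbol: 38 of the 22332 symbols in the deposited table, of which 11 belong to polymerase I, 25 to polymerase III and 2 are subunits that both enzymes share. The comparison is between cultures of the mouse embryonic stem cell line CGR8 transfected with a pool of siRNAs against Rsl24d1 (siRSL24D1, n = 3) and the same line transfected with a non-targeting pool (siCtrl, n = 3). The product of Rsl24d1 takes part in building the large subunit of the ribosome. Both groups were grown on gelatin in medium with 10% fetal bovine serum and the cytokine LIF and were collected 48 hours after transfection, and their total RNA was sequenced after removal of ribosomal RNA. Both groups are of a single cell line that received siRNA, and cells without siRNA were not analysed here. The series' design text calls the libraries of each group independent triplicates but does not say what a replicate was. The p-values set the difference between the groups against the spread between libraries of a group. What that spread stands for is therefore not known.

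RNA polymerase I works in the nucleolus and transcribes only the large ribosomal RNA precursor. At its promoter the factor UBF (Ubtf) and the SL1 complex (Taf1a to Taf1d with the TATA-binding protein) bind DNA, and Rrn3 brings the polymerase to them. RNA polymerase III makes 5S ribosomal RNA, transfer RNA, U6 and other small RNAs, and uses TFIIIA and TFIIIC, or the SNAP complex, to place TFIIIB at the gene. Growth signals act on both enzymes, with Myc as an activator and Maf1 as a repressor of polymerase III. The RNAs that the enzymes make were not analysed here, so the values below are messenger RNA levels of the machinery and not its output.

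Library totals lay between 30943635 and 35214000 estimated counts. Rsl24d1 itself, which checks the labels, was at 0.538 of its siCtrl level in siRSL24D1 libraries (log2 fold change -0.89, SE 0.04, adjusted p = 2.0e-05). Libraries of a group differed from each other by a median of 0.07 to 0.12 on the log2 scale over all genes tested; siRSL24D1 2 was at 0.11 and 0.10 from its group's other libraries, which differed by 0.08, and siCtrl 3 was at 0.12 and 0.11 from its group's other libraries, which differed by 0.07. All 8 stem cell markers looked up were detected, with a summed level of 2595 to 2691 CPM (counts scaled to the size of the library) in siRSL24D1 and 2971 to 3306 CPM in siCtrl. The 6 fibroblast markers summed to 92.9 to 120.3 CPM in siRSL24D1 and 104.5 to 138.4 CPM in siCtrl; of the 5 tested, Col1a2 and Pdgfrb fell (log2 fold changes, here and for the next markers, of -0.46 and -0.52) and 3 were not called, among them Col1a1 at 0.53. The 5 primitive endoderm markers summed to 34.6 to 38.9 CPM in siRSL24D1 and 37.5 to 40.9 CPM in siCtrl, but moved in both directions: Gata4 and Gata6 rose (0.54 and 0.50), Pdgfra and Dab2 fell (-0.20 and -0.43), and Sox17 was not called. The 3 mesoderm markers summed to 162 to 177 CPM in siRSL24D1 and 124 to 134 CPM in siCtrl, with T and Eomes called as rises (0.37 and 0.43) and Mesp1 not called (-0.29). The 3 neuroectoderm markers summed to 278 to 332 CPM in siRSL24D1 and 209 to 217 CPM in siCtrl, nearly all of it Nes, which averaged 301 CPM in siRSL24D1 and 211 CPM in siCtrl and rose by 0.51, while Sox1 (0.35) and Pax6 (-0.16) were not called. No marker was at 0 in all 6 libraries. The part of these shifts in the results below was not tested.

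All 38 members passed the filter on low counts. Of them, 22 rose in siRSL24D1 cells and 2, Polr3g and Polr3gl, fell at an adjusted p under 0.05 (edgeR quasi-likelihood test, Benjamini-Hochberg adjustment over 15084 genes), while 14 were not called. Over all genes tested 41.2% were called: 21.2% rose and 20.0% fell. Among the 10904 genes with an average level between those of the lowest and the highest member, 23.3% rose and 21.5% fell, against 57.9% and 5.26% of the members. The members' changes were small: the median log2 fold change was 0.19, beside 0.02 over all genes tested, the largest rise was 0.62 and the largest fall -0.53, and no member changed by 2-fold. The median size of the change, with the sign left out, was 0.20 for the members and 0.20 over all genes tested. In bulk libraries such as these, fewer cells of a type and less RNA per cell cannot be told apart.

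**Figure D1:**
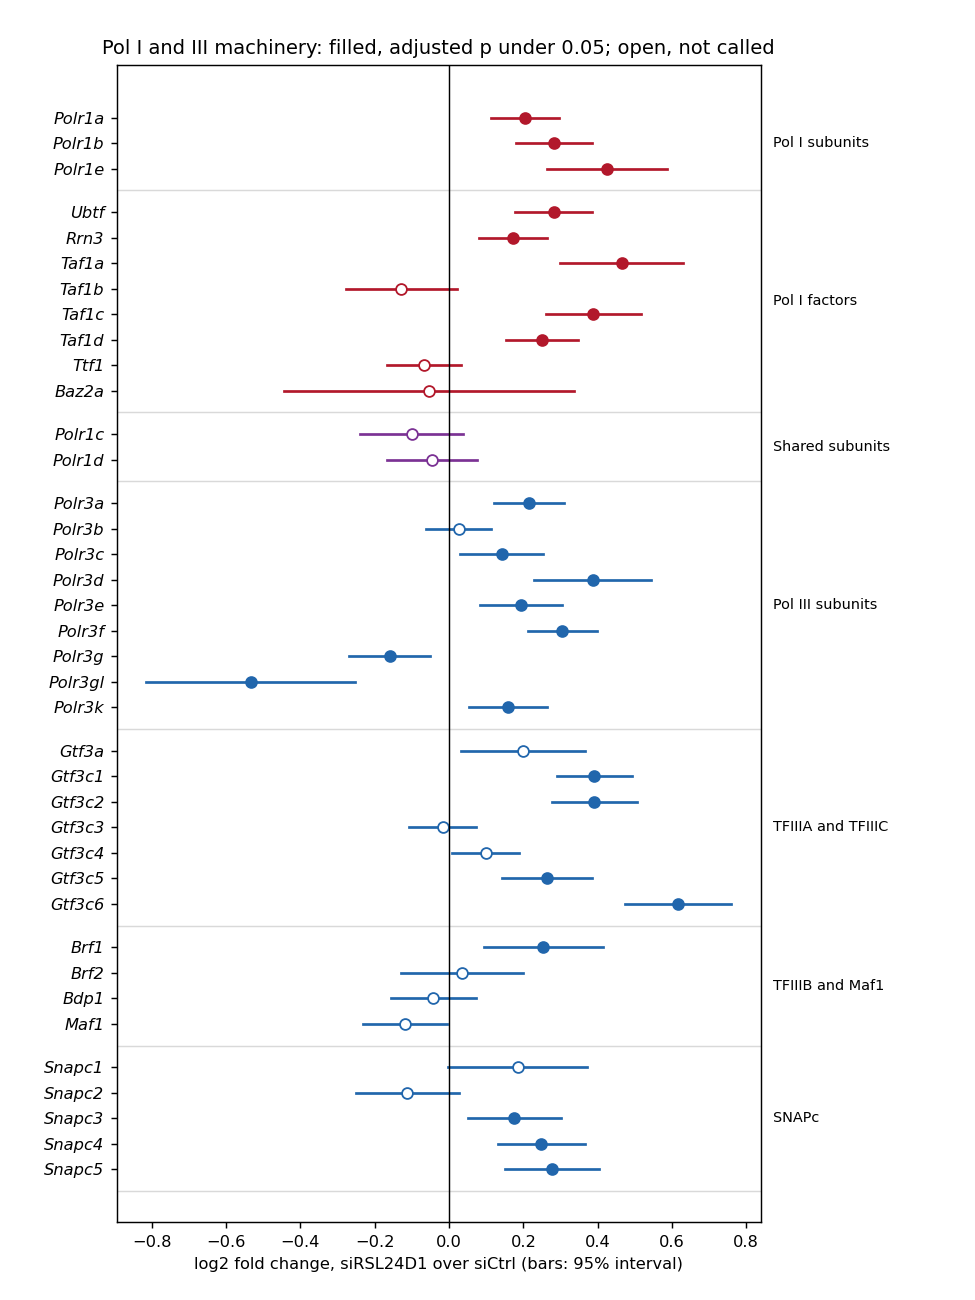
Log2 fold change of each of the 38 members, siRSL24D1 over siCtrl, with its 95% interval, grouped by role; filled points passed an adjusted p under 0.05 and open points did not, in red for polymerase I, purple for shared subunits and blue for polymerase III. Most filled points lie between 0.14 and 0.62, and the filled points left of 0 are Polr3g and Polr3gl.

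The values of the 2 groups did not overlap for 27 of 38 members, or 71.1%, where 53.0% of all genes tested did not overlap. By enzyme, 8 of 11 polymerase I members rose and 0 fell, at a median log2 fold change of 0.25. Of the 25 polymerase III members, 14 rose and 2 fell, at a median of 0.18. Neither of the 2 shared subunits was called. Whether polymerase I and polymerase III genes differed from each other in their change was not tested.

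**Figure D2:**
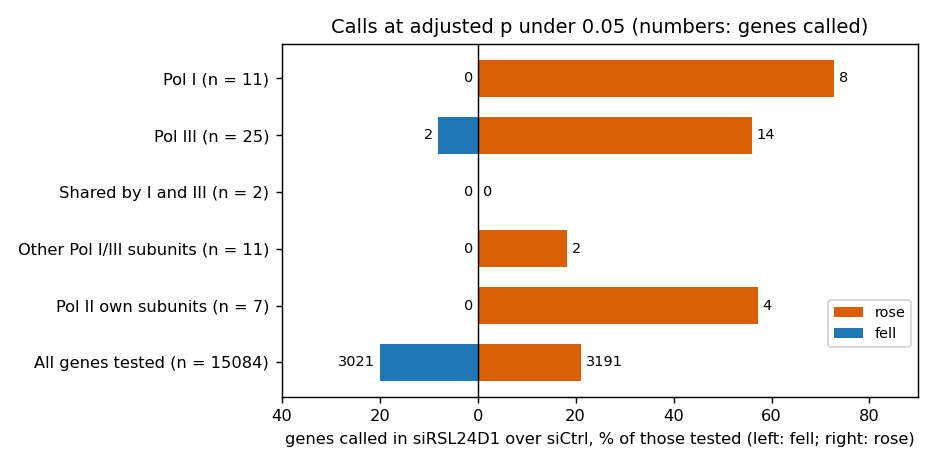
Percent of tested genes that rose (right) or fell (left) in siRSL24D1 over siCtrl, with the number called beside each bar, for the polymerase I and III members, the shared subunits, 2 comparison lists of polymerase subunits and all genes tested. The polymerase I bar reaches 72.7% and the polymerase III bar 56.0% for rises, beside 21.2% for all genes.

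All 3 polymerase I subunits outside the shared ones rose. Polr1a encodes the largest, catalytic subunit (chromosome 6, 71909053 to 71984935, plus strand, GRCm38) and had 181, 185 and 184 CPM in siRSL24D1 libraries, against 158, 155 and 165 CPM in siCtrl libraries. The groups did not overlap, and the log2 fold change was 0.20 (SE 0.04, adjusted p = 0.0045). Polr1a has a long transcript of 9216 bases, and after a correction for transcript length its log2 fold change was 0.10 and the call was lost (adjusted p = 0.285). Polr1b, the second-largest subunit (chromosome 2, 129100995 to 129126594), had 84.9, 86.6 and 89.5 CPM in siRSL24D1, against 70.0, 70.0 and 74.4 CPM in siCtrl. Each siRSL24D1 library was higher than each siCtrl library, with a log2 fold change of 0.28 (SE 0.04, adjusted p = 0.0016).

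The largest rise among these subunits was that of Polr1e, which encodes the PAF53 subunit that helps the enzyme start and elongate (chromosome 4, 45018583 to 45036565). It had 37.9, 43.2 and 41.4 CPM in siRSL24D1, against 32.2, 31.1 and 28.0 CPM in siCtrl, a 1.34-fold rise with a log2 fold change of 0.43 (SE 0.07, adjusted p = 0.0021). PAF53 pairs with a subunit encoded by Cd3eap, now also named Polr1g, which is not a member but is of the list of other subunits. Cd3eap had 32.3, 38.8 and 34.0 CPM in siRSL24D1, against 25.3, 24.0 and 24.1 CPM in siCtrl, and rose by 0.52 on the log2 scale (adjusted p = 0.000979). The genes of both partners of this pair therefore rose. Twistnb and Znrd1, which encode further polymerase I subunits and are not members, were not called. Their log2 fold changes were 0.07 and 0.01 (adjusted p = 0.178 and 0.909).

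Of the 8 polymerase I factors, 5 rose and 0 fell. Ubtf, the nucleolar factor that keeps ribosomal DNA open and active (chromosome 11, 102304560 to 102319742, minus strand), had 187, 202 and 190 CPM in siRSL24D1, against 164, 157 and 155 CPM in siCtrl. The lowest siRSL24D1 library lay above the highest siCtrl library, and the log2 fold change was 0.28 (SE 0.05, adjusted p = 0.0019). Rrn3, the growth-regulated factor that links the polymerase to SL1 (chromosome 16, 13780708 to 13814839), had 240.1, 255 and 241 CPM in siRSL24D1, against 219.7, 217 and 217 CPM in siCtrl. The groups did not overlap but lay close, with a log2 fold change of 0.17 (SE 0.04, adjusted p = 0.0095). Without siCtrl 2 the call was lost (adjusted p = 0.0513).

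Of the 4 SL1-specific subunits, 3 rose. Taf1a (chromosome 1, 183388981 to 183410198) had 18.1, 18.7 and 18.3 CPM in siRSL24D1, against 12.2, 14.4 and 13.3 CPM in siCtrl. With a log2 fold change of 0.47 (SE 0.07, adjusted p = 0.0015) it was the largest rise of any polymerase I member. Taf1c (chromosome 8, 119597871 to 119605222, minus strand) had 27.2, 28.6 and 27.0 CPM in siRSL24D1, against 20.0, 21.3 and 21.9 CPM in siCtrl, a log2 fold change of 0.39 (SE 0.06, adjusted p = 0.0011). Taf1d (chromosome 9, 15306214 to 15316991) had 182, 190 and 196 CPM in siRSL24D1, against 161, 161 and 155 CPM in siCtrl. Its groups were also apart, at a log2 fold change of 0.25 (SE 0.04, adjusted p = 0.0022). GENCODE M21 places 8 snoRNA genes within Taf1d on the same strand, and the share of its counts that they give was not tested. It also places 1 within the polymerase III member Polr3c on the same strand, likewise not tested. Taf1b, the SL1 subunit that resembles the TFIIB factor of polymerase II, was at 28.0 ± 2.04 CPM in siRSL24D1 and 30.6 ± 1.30 CPM in siCtrl (SD, n = 3 each) and was not called (log2 fold change -0.13, 95% interval -0.28 to 0.02, adjusted p = 0.149). Without siRSL24D1 1 it passed the threshold as a fall (-0.19, adjusted p = 0.0474). The TATA-binding protein gene Tbp, whose product is part of SL1 and of TFIIIB, rose by 0.18 (adjusted p = 0.0184).

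The remaining 2 polymerase I factors were not called. Ttf1, which ends transcription of ribosomal DNA, was at 71.5 ± 1.67 CPM in siRSL24D1 and 75.0 ± 2.43 CPM in siCtrl (log2 fold change -0.07, 95% interval -0.17 to 0.03, adjusted p = 0.240). Baz2a encodes TIP5, the large subunit of the NoRC complex that silences ribosomal DNA copies. It had 158, 109 and 156 CPM in siRSL24D1, against 125, 134 and 181 CPM in siCtrl. The groups overlapped over most of their range, with siRSL24D1 2 the lowest library and siCtrl 3 the highest. The log2 fold change was -0.05 (SE 0.17, 95% interval -0.44 to 0.34, adjusted p = 0.824), an interval that holds changes as large as most of the rises above, and it was 0.12 without siCtrl 3 and 0.10 without siRSL24D1 2. Smarca5, which encodes the ATPase partner of TIP5, was at 606 CPM in siRSL24D1 and 586 CPM in siCtrl and was not called (log2 fold change 0.05, adjusted p = 0.323).

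The shared subunits Polr1c and Polr1d, which form the assembly platform of both enzymes, were not called. Polr1c was at 134.6 ± 8.54 CPM in siRSL24D1 and 144.3 ± 8.43 CPM in siCtrl (log2 fold change -0.10, 95% interval -0.24 to 0.04, adjusted p = 0.219), and passed as a fall without siCtrl 3 (-0.16, adjusted p = 0.0389). Polr1d was at 131 ± 7.65 CPM in siRSL24D1 and 135 ± 4.75 CPM in siCtrl (log2 fold change -0.05, 95% interval -0.17 to 0.08, adjusted p = 0.524), a change that was 0.016 after the length correction. The groups overlapped in both genes.

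**Figure D3:**
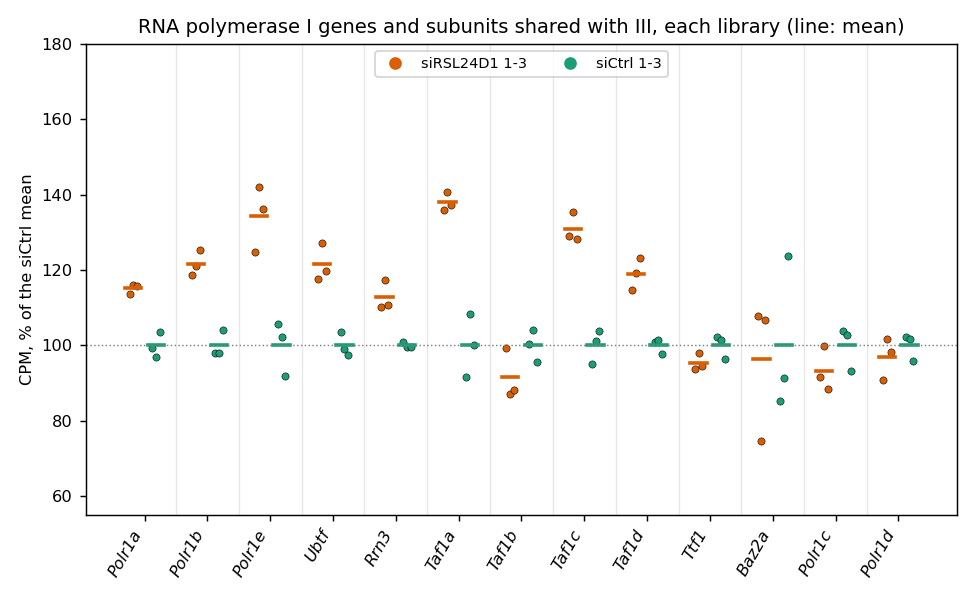
CPM of each polymerase I member and shared subunit in each library, as percent of the gene's siCtrl mean (siRSL24D1 orange, siCtrl green, line: mean of 3 libraries). Taf1a, Polr1e and Taf1c show the widest gaps between the groups, and Baz2a the widest spread within them.

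Of the 9 genes of polymerase III subunits, 6 rose and 2 fell. These are 66.7% and 22.2%, beside 21.2% and 20.0% of all genes tested, so the share that fell was near that of all genes. Polr3a, which encodes the largest, catalytic subunit (chromosome 14, 24448696 to 24487058, minus strand), had 64.8, 68.5 and 67.0 CPM in siRSL24D1, against 57.0, 57.6 and 57.9 CPM in siCtrl. The groups were clearly apart, with a log2 fold change of 0.22 (SE 0.04, adjusted p = 0.0039). Its partner Polr3b, the second-largest subunit, had 82.1 to 84.9 CPM in siRSL24D1 and 80.9 to 83.1 CPM in siCtrl, and was not called (log2 fold change 0.03, 95% interval -0.06 to 0.11, adjusted p = 0.609). The interval of Polr3a (0.12 to 0.31) lay above that of Polr3b, although the genes of these 2 subunits were not tested against each other.

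Polr3d and Polr3f moved most among the rising subunits. Polr3d encodes the RPC4 subunit (chromosome 14, 70438757 to 70443447, minus strand) and had 31.8, 35.4 and 34.7 CPM in siRSL24D1, against 27.2, 23.8 and 26.8 CPM in siCtrl (log2 fold change 0.39, SE 0.07, adjusted p = 0.0028). Polr3e, which encodes the partner of RPC4, rose by 0.19 (adjusted p = 0.0135), a call lost without siCtrl 2 (adjusted p = 0.0837). Polr3f encodes RPC6, part of the 3-subunit module with which the enzyme opens DNA (chromosome 2, 144527718 to 144541995). It had 52.7, 53.0 and 51.5 CPM in siRSL24D1, against 42.3, 42.2 and 42.6 CPM in siCtrl, with a log2 fold change of 0.31 (SE 0.04, adjusted p = 0.000696). The Polr3f libraries lay close together within each group, at 52.4 ± 0.77 CPM in siRSL24D1 and 42.4 ± 0.22 CPM in siCtrl (SD, n = 3 each).

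The smallest rises were borderline. Polr3c, which encodes RPC3 of the same module, rose by 0.14 (adjusted p = 0.0476), and Polr3k, which encodes the subunit that cleaves RNA at termination, by 0.16 (adjusted p = 0.0251). Polr3c lost its call without any library other than siCtrl 3 (adjusted p = 0.0670 to 0.177), under 2 other scalings (0.0569 and 0.0873), without a filter (0.0767) and by the DESeq2 test (0.155). Polr3k lost its call without any library other than siCtrl 1 (adjusted p = 0.0578 to 0.103), under upper-quartile scaling (0.0658) and by the DESeq2 test (0.120).

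Polr3g and Polr3gl are paralogs that encode alternative forms of RPC7, the third subunit of that module. The Polr3g form is the one known from pluripotent and tumour cells and is lost on differentiation, while the Polr3gl form is found in most tissues. Polr3g (chromosome 13, 81673843 to 81711013, minus strand) had 68.1, 67.9 and 67.0 CPM in siRSL24D1, against 77.0, 78.6 and 71.2 CPM in siCtrl. The siRSL24D1 libraries were the lower ones, though siCtrl 3 came near them, and the log2 fold change was -0.16 (SE 0.05, adjusted p = 0.0282). The call was lost without any library other than siCtrl 3 (adjusted p = 0.0562 to 0.128). Of the 8 stem cell markers, 4 fell (Tdgf1 by 0.62, Nanog by 0.49, Dppa5a by 0.47 and Esrrb by 0.17), Zfp42 rose by 0.24, and Pou5f1, Sox2 and Klf4 were not called. The part of these shifts in the fall of Polr3g was not tested.

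Polr3gl (chromosome 3, 96577872 to 96594181, minus strand) had 3.19, 3.05 and 2.68 CPM in siRSL24D1, against 4.75, 3.96 and 4.19 CPM in siCtrl. All siRSL24D1 libraries were lower, and with a log2 fold change of -0.53 (SE 0.12, adjusted p = 0.0093) this was the largest fall of any member. It rests on 88.9 to 107 estimated counts per siRSL24D1 library and 129 to 157 per siCtrl library. Per kilobase of transcript, Polr3g was at 22.2 ± 0.18 CPM in siRSL24D1 and 24.8 ± 1.28 CPM in siCtrl, and Polr3gl at 2.08 ± 0.18 CPM in siRSL24D1 and 3.01 ± 0.28 CPM in siCtrl. The ratio of Polr3g to Polr3gl on that scale was thus 9.99, 10.4 and 11.7 in siRSL24D1 libraries and 7.57, 9.27 and 7.94 in siCtrl libraries. Polr3g was the dominant form in every library of both groups.

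**Figure D4:**
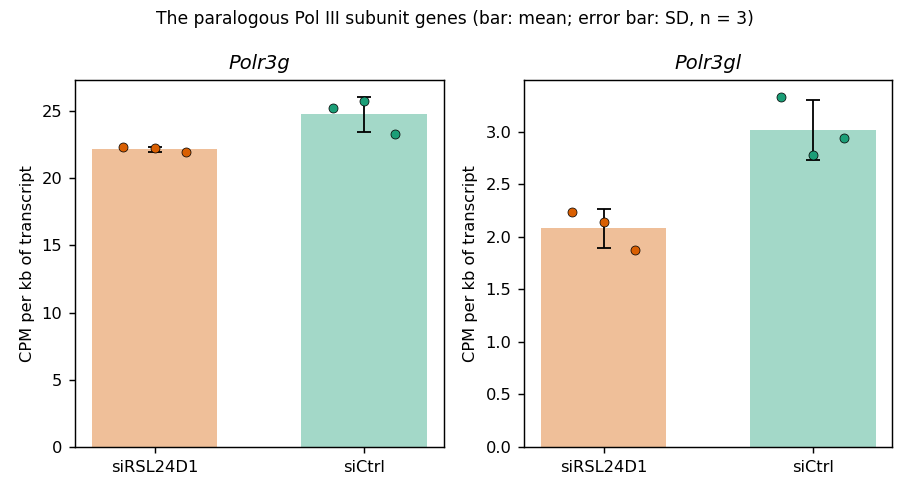
Level of the paralogs Polr3g and Polr3gl in CPM per kilobase of transcript (bars: mean; error bars: SD of 3 libraries; points: libraries), siRSL24D1 left and siCtrl right. Both are lower in siRSL24D1, and the axis scales of the panels differ.

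TFIIIA and TFIIIC place polymerase III on 5S and transfer RNA genes. Of their 7 genes, 4 rose and 0 fell, all 4 of them encoding TFIIIC subunits. Gtf3c6, which encodes the smallest TFIIIC subunit (chromosome 10, 40247703 to 40258108, minus strand), had 45.8, 53.0 and 47.2 CPM in siRSL24D1, against 31.3, 31.4 and 32.5 CPM in siCtrl. The gap between the groups was wider than the spread within either, and the 1.53-fold rise (log2 fold change 0.62, SE 0.06, adjusted p = 0.000218) was the largest of any member.

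Gtf3c1 and Gtf3c2 encode subunits that, in human TFIIIC, bind the B box of transfer RNA genes. Gtf3c1 (chromosome 7, 125640954 to 125707780, minus strand) had 207, 207 and 215 CPM in siRSL24D1, against 156, 156 and 168 CPM in siCtrl (log2 fold change 0.39, SE 0.04, adjusted p = 0.000353). Gtf3c2 (chromosome 5, 31156005 to 31180144, minus strand) had 107, 105 and 103 CPM in siRSL24D1, against 75.3, 80.8 and 84.0 CPM in siCtrl (log2 fold change 0.39, SE 0.05, adjusted p = 0.000576). The 2 genes moved by the same amount and their groups were apart in both cases. Gtf3c5, which encodes a subunit near the A box (chromosome 2, 28566311 to 28583751, minus strand), had 26.8, 26.8 and 25.0 CPM in siRSL24D1, against 21.6, 21.5 and 22.2 CPM in siCtrl (log2 fold change 0.26, SE 0.05, adjusted p = 0.0050).

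The other TFIIIC genes were not called. Gtf3c3, whose product contacts TFIIIB, was at 96.9 ± 1.08 CPM in siRSL24D1 and 98.1 ± 2.50 CPM in siCtrl (log2 fold change -0.02, 95% interval -0.11 to 0.07, adjusted p = 0.748). Gtf3c4 was at 107 ± 0.42 CPM in siRSL24D1 and 99.98 ± 3.15 CPM in siCtrl, without overlap (log2 fold change 0.10, adjusted p = 0.0800), and passed with library totals (adjusted p = 0.0426). Gtf3a, which encodes the 5S-specific factor TFIIIA, was at 34.4 ± 2.57 CPM in siRSL24D1 and 30.0 ± 2.10 CPM in siCtrl (log2 fold change 0.20, adjusted p = 0.0583). It missed the threshold narrowly and passed with library totals (adjusted p = 0.0299), with the replicate number as a block (0.0215), after the length correction (0.0040) and without siRSL24D1 1 (0.0482).

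TFIIIB recruits the polymerase, and of the 4 genes that encode its subunits or the repressor Maf1, 1 rose and 0 fell. The 25.0% that rose lay near the 21.2% of all genes tested. Brf1, the TFIIIB subunit for 5S and transfer RNA genes (chromosome 12, 112960085 to 113000704, minus strand), had 16.8, 16.3 and 17.1 CPM in siRSL24D1, against 14.3, 12.9 and 14.9 CPM in siCtrl. The groups did not overlap and the log2 fold change was 0.25 (SE 0.07, adjusted p = 0.0208), a call lost without siCtrl 2, siRSL24D1 1 or siRSL24D1 3 (adjusted p = 0.0564 to 0.0818). Brf2, its counterpart at U6-type genes, had 21.7, 23.7 and 22.2 CPM in siRSL24D1, against 22.3, 23.6 and 20.2 CPM in siCtrl. These values were mixed, with no call (log2 fold change 0.03, 95% interval -0.13 to 0.20, adjusted p = 0.724). Bdp1, which both forms of TFIIIB share, was at 121 ± 5.14 CPM in siRSL24D1 and 125 ± 5.45 CPM in siCtrl (log2 fold change -0.04, adjusted p = 0.526). It passed as a fall after the length correction (-0.16, adjusted p = 0.0489), with a transcript of 9921 bases.

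Maf1, the repressor that holds polymerase III back when nutrients are short (chromosome 15, 76351294 to 76354380), had 44.6, 49.0 and 46.2 CPM in siRSL24D1, against 51.3, 51.2 and 49.3 CPM in siCtrl. All siRSL24D1 libraries were lower, siRSL24D1 2 by a narrow margin, but the difference was not called (log2 fold change -0.12, SE 0.05, adjusted p = 0.0870). It passed as a fall without siCtrl 3 (adjusted p = 0.0463) or without siRSL24D1 2 (adjusted p = 0.0435).

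The SNAP complex serves U6-type genes of polymerase III and the small nuclear RNA genes of polymerase II. Of its 5 genes 3 rose and 0 fell. Snapc4, which encodes the large DNA-binding subunit (chromosome 2, 26362765 to 26380653, minus strand), had 35.2, 32.4 and 34.6 CPM in siRSL24D1, against 29.1, 28.6 and 28.3 CPM in siCtrl (log2 fold change 0.25, SE 0.05, adjusted p = 0.0056). Snapc5, the smallest subunit (chromosome 9, 64179274 to 64183132), had 23.4, 24.9 and 22.7 CPM in siRSL24D1, against 19.3, 19.7 and 19.7 CPM in siCtrl (log2 fold change 0.28, SE 0.06, adjusted p = 0.0050). In both genes the siCtrl libraries lay within 1 CPM of each other and below all siRSL24D1 libraries. Snapc3 rose by 0.18 (adjusted p = 0.0331), which missed the threshold with siCtrl 1, siCtrl 2, siRSL24D1 2 or siRSL24D1 3 left out (adjusted p = 0.0621 to 0.125), under upper-quartile scaling (0.0530) and by the DESeq2 test (0.0735). Snapc1 was at 0.18 (adjusted p = 0.105) and Snapc2 at -0.11 (adjusted p = 0.171), neither of them called.

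**Figure D5:**
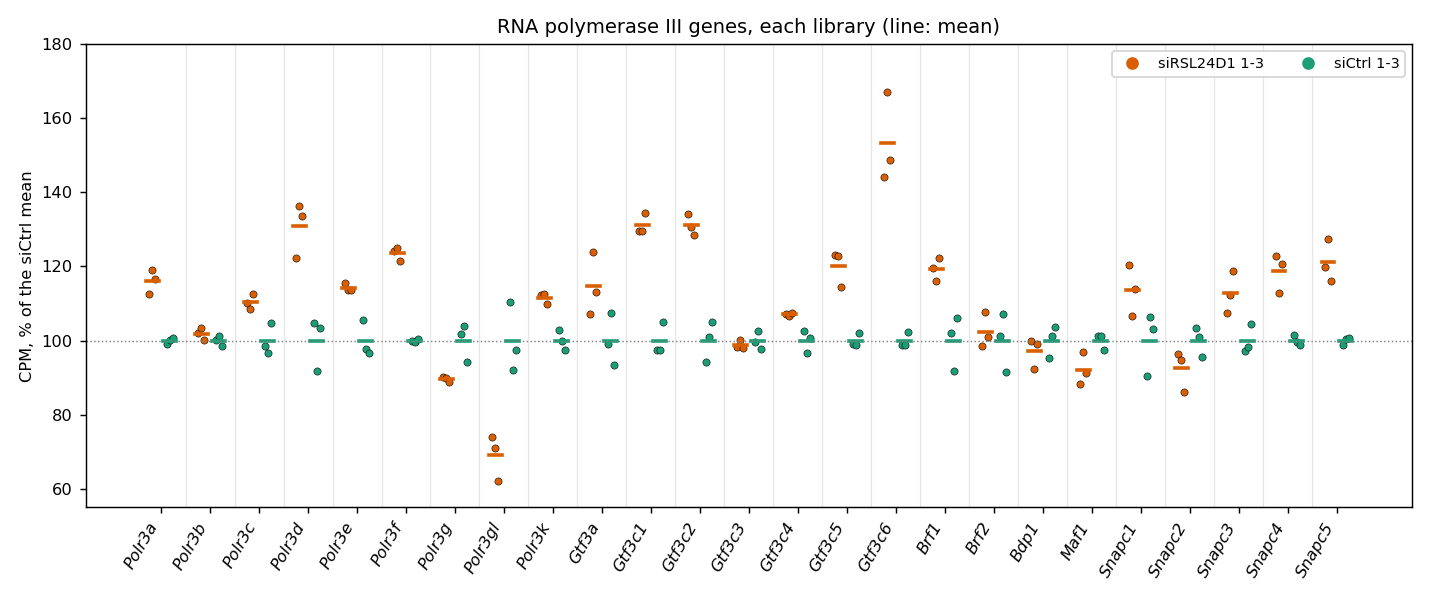
CPM of each polymerase III member in each library, as percent of the gene's siCtrl mean (siRSL24D1 orange, siCtrl green, line: mean of 3 libraries). Gtf3c6 lies highest in siRSL24D1 and Polr3gl lowest, while the groups overlap for Polr3b, Gtf3a, Gtf3c3, Brf2, Bdp1 and Snapc2.

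Levels per kilobase of transcript differed far more between the members than between the groups. In siRSL24D1 the highest was Taf1d, at 165 CPM per kilobase (139 in siCtrl), then Polr1d at 109.7 (113 in siCtrl), Polr1c at 102.4 (109.8 in siCtrl) and Rrn3 at 68.5 (60.8 in siCtrl). The Taf1d level is for a transcript of 1148 bases, and the part of it from the 8 snoRNA genes within Taf1d was not tested. The lowest were Polr3gl, at 2.08 CPM per kilobase (3.01 in siCtrl), and Snapc1, at 2.46 (2.16 in siCtrl). The catalytic subunit genes stood between these, Polr1a at 19.9 CPM per kilobase in siRSL24D1 and 17.3 in siCtrl, and Polr3a at 14.2 in siRSL24D1 and 12.3 in siCtrl.

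Other polymerase genes were read for comparison. Of 11 further subunits and factors of polymerases I and III, 2 rose, Cd3eap and Tbp, and 0 fell, at a median log2 fold change of 0.05. The 18.2% that rose lay near the 21.2% of all genes tested and below the 57.9% of the members. The larger share of rises among the members was thus not seen in these further genes. The 5 subunits that all 3 nuclear polymerases share (Polr2e, Polr2f, Polr2h, Polr2k and Polr2l) were not called and ranged from -0.14 to 0.08. Of 7 subunits found only in polymerase II, 4, or 57.1%, rose (Polr2b, Polr2d, Polr2i and Polr2j) and 0 fell, at a median of 0.26. Rises of polymerase subunit genes were thus not limited to polymerases I and III. Polr2a, the largest polymerase II subunit, was at 0.49 with a standard error of 0.51 (adjusted p = 0.476).

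Of 23 regulators and partners, 7 rose and 2 fell, at a median log2 fold change of 0.05. The share called was 39.1%, near the 41.2% of all genes tested. By direction, 30.4% rose and 8.70% fell, beside 21.2% and 20.0% of all genes tested. Myc, a transcription factor that raises the activity of all 3 polymerases, averaged 24.4 ± 1.66 CPM in siRSL24D1 and 16.9 ± 1.06 CPM in siCtrl, a log2 fold change of 0.53 (adjusted p = 0.000825). Its relative Mycn averaged 93.0 CPM in siRSL24D1 and 64.2 CPM in siCtrl (log2 fold change 0.54, adjusted p = 0.000121). Sirt7, a deacetylase that activates polymerase I, rose by 0.61, Rrp8, of a complex that silences ribosomal DNA, by 0.40, and Nolc1, a nucleolar phosphoprotein, by 0.17. Trp53 and Rb1, whose products repress both enzymes, rose by 0.25 and 0.54. Zfp143, an activator of U6-type genes, fell by 0.20 (adjusted p = 0.0185), and Top2a, a topoisomerase of dividing cells, fell by 0.54. Mtor (0.03) and Ssb, which encodes the La protein that binds new polymerase III transcripts (0.02), were not called.

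Promoters were read for motifs because many members rose together. RefSeq (GRCm38.p6) gave a start for 33 of the 38 members, and the 250 bases before it were searched on both strands. For the 4 members with several starts, the first one listed was used. The E-box CACGTG, the letters that Myc with its partner Max binds, stood in 4 of 33 windows, or 12.1%, and in 6.05% of 27025 windows of all genes. These 4 were of Rrn3, Gtf3c6 and Polr3c, which rose, and of Polr3gl, which fell. All 250 bases of the Gtf3c6 window and 189 of the Polr3c window lay inside the gene as placed by GENCODE M21. The letters CCGGAAGT, which ETS factors bind, stood in 5 of 33 windows, or 15.2%, and in 2.93% of all windows. They were in Taf1a and Taf1c, which rose, and in Ttf1, Polr3b and Polr1c, which were not called. The NRF1 motif and the YY1 motif were in 0 member windows, with 0.781% and 0.289% of all windows. The members' windows had a median GC content of 56.8%, beside 52.0% for all. The windows of all genes include genes outside the 15084 tested, whereas every member was tested, so the 2 sets are not alike. No motif searched holds another, and a match is a description of the sequence only. The windows of 4 members are given 5′ to 3′ on the gene's strand, with the motifs in capitals: Rrn3 with 2 E-boxes (chr16:13780449-13780698, plus), Polr3gl with 1, as the member that fell most (chr3:96594182-96594431, minus), and Taf1a (chr1:183388635-183388884, plus) and Taf1c (chr8:119605207-119605456, minus), the SL1 genes with the ETS letters, there as the reverse complement ACTTCCGG.
Rrn3: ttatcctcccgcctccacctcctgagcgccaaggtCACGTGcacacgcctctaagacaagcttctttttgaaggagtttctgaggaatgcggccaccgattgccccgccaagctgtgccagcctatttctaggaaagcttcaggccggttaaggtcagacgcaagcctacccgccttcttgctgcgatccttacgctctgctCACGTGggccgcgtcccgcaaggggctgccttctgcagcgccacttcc
Polr3gl: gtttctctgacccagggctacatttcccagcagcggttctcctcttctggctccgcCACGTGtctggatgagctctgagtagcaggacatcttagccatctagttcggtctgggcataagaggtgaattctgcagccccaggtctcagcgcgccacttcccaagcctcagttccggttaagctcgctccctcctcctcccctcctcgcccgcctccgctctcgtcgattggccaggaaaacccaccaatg
Taf1a: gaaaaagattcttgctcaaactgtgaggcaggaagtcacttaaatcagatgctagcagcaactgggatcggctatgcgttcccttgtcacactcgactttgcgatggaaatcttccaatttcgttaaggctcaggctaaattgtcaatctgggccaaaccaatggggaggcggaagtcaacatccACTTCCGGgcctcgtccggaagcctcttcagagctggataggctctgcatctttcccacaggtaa
Taf1c: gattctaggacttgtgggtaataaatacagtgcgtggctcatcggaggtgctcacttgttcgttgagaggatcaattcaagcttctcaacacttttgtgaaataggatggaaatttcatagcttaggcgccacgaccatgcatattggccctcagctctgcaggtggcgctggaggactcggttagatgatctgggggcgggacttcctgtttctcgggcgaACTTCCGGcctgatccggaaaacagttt

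Some counts may hold reads of neighbours. In GENCODE M21, 8 members overlap a coding gene on the other strand and 2 one on the same strand. The latter are Gtf3c2 with Gm29609 and Snapc1 with Gm49321. Neither Gm29609 nor Gm49321 was called, at log2 fold changes of 0.14 and 0.18, of the same sign as the members. The library kit keeps the strand, but the strand setting of the counting is not given in the sources used here. Among the partners on the other strand, Fbxo10 (beside Polr1e) and Btbd6 (beside Brf1) were not called, at -0.03 and 0.03. Psip1 (beside Snapc3) was at -0.25 and 4931406C07Rik (beside Taf1d) at -0.49, opposite in sign to the members. Adgra2 (beside Brf2), Mtif3 (beside Gtf3a) and Cep295 (also beside Taf1d) were not called, at 0.11, 0.07 and 0.01, of the members' sign. Gm16253 (beside Polr3gl) and Dnaaf1 (beside Taf1c) were not among the genes tested. For 9 members the estimated count was not whole in at least 1 library, at a tolerance of 0.01. Among them were Polr3gl, Gtf3c2, Polr3f, Polr1b and Taf1a. Part of their reads may have been shared out between transcripts of different genes. How the authors' estimate was made is not given in the sources used here.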

How the data were processed

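Total RNA of 6 libraries was analysed. The authors deposited 1 table of estimated counts per gene symbol, without scaling. The submitters' processing notes name STAR 2.7.0f, Salmon 0.14.1 and the build GRCm38, but the sources used here give no roles, annotation, filters or strand setting. Counts were rounded, genes filtered with filterByExpr (minimum count 10, minimum total 15), and libraries scaled by TMM. The test of siRSL24D1 against siCtrl was edgeR's quasi-likelihood test (version 4.0.16, R 4.3.3; two-sided, no covariate), with Benjamini-Hochberg adjustment over 15084 genes. Levels are TMM-scaled CPM; summed marker levels use full library totals. Transcript lengths and positions are from GENCODE M21 (longest principal transcript). The standard error is the log2 fold change over the root of F. Alternatives used DESeq2 1.42.0, limma 3.58.1, other scalings and filters, a loess length correction, the replicate block and leaving out libraries. This test was run on simulated data first. Full values were given for the called members with the largest changes and for 10 chosen genes. Members, lists and tests were chosen with earlier results of these data known.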

Additional observations from a re-analysis of the deposited data

How the results depend on the processing

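Over 18 alternatives, 16 of the 24 called members kept their call and direction in each, 15 of them as rises and Polr3gl as a fall. The labels do not say what a shared replicate number stands for, so the numbers were not taken as pairs. Deviations of same-numbered libraries from their group means had correlations of -0.22, 0.14 and 0.17. Those of differently numbered libraries ran from -0.40 (siRSL24D1 2 with siCtrl 3) to 0.34 (siRSL24D1 2 with siCtrl 1). With 3 libraries per group these values cannot settle whether the libraries were pairs. With the replicate number as a block, 15 polymerase III members rose and 2 fell, and 8 polymerase I members rose and 0 fell, as against 14, 2, 8 and 0 without it. Over all genes 3327 rose and 3104 fell with the block, as against 3191 and 3021 without it. At an adjusted p under 0.01, 9 polymerase III members rose and 1 fell, and over all genes 1886 rose and 1867 fell. Leaving out 1 library at a time gave 7 to 8 polymerase I rises, 0 to 1 falls, 9 to 13 polymerase III rises (9 without siCtrl 2) and 1 to 3 falls, and over all genes 2210 to 3356 rose and 2147 to 3285 fell.

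Members not called in the main test changed sign in 11 cases: Gtf3c3 with library totals (0.0060), Polr3b with upper-quartile scaling (-0.0017) and after the length correction (-0.019 without the block and -0.019 with it), Polr1d after the length correction (0.016 without the block and 0.015 with it) and without siRSL24D1 1 (0.00054), Baz2a without siCtrl 3 (0.12) or siRSL24D1 2 (0.10), and Brf2 without siCtrl 3 (-0.037) or siRSL24D1 2 (-0.0040). Leaving out 1 library gave -0.087 to 0.00054 for Polr1d, -0.16 to 0.12 for Baz2a and -0.037 to 0.083 for Brf2. The cause was not tested. The median log2 fold change of all genes ran from -0.01 under upper-quartile scaling to 0.04 with library totals, and that of the members from 0.16 to 0.21.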
